A study of Rattus norvegicus with 6 samples.

Results

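Fatty acid synthesis and desaturation was followed in NRK-52E cells through 10 genes, Acly, Acss2, Acaca, Acacb, Fasn, Elovl5, Elovl6, Fads1, Fads2 and Scd. They were picked out by gene symbol, and all 10 had a row among the 18930 genes of the deposited count table. NRK-52E is an established line of kidney epithelial cells from the rat, and genotype was WT in every sample. Cells were kept for 24 h in 10 mM of STZ (3 samples), or received vehicle (Control, 3 samples), and messenger RNA was sequenced. STZ, or streptozotocin, is a nitrosourea joined to a sugar, which methylates DNA and is used against neuroendocrine tumors. The comparison asks how the transcripts of these enzymes stood after a day in STZ.

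Fatty acids are built in the cytosol from acetyl-CoA. Acetyl-CoA is carboxylated to malonyl-CoA, the synthase joins these units to palmitate, and elongases and desaturases then lengthen the chain and insert double bonds. In many tissues the genes of this route are driven by the transcription factor SREBP-1, while SREBP-2 mainly drives those of cholesterol synthesis. The kidney tubule normally burns fatty acids for energy, and a proliferating cell line also needs new fatty acids for its membranes.

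Transcripts of fatty acid synthesis and desaturation were lower in STZ-treated cells than in Control. Of the 10 genes, 9 passed the filter on low counts, and all 9 were lower at an adjusted p-value below 0.05. The p-values came from the quasi-likelihood test of edgeR and were adjusted by the Benjamini-Hochberg method over the 11870 genes tested. Among all genes tested, 25.1% were called lower and 25.9% higher by the same rule. Of the 9 genes, 4 (Scd, Elovl6, Acss2 and Fads1) also had a log2 fold change under -1, against 1.11% of all genes tested. In each of the 9, the highest STZ sample lay under the lowest Control sample, which held for 27.7% of all genes tested. The median log2 fold change was -0.81 over the 9 genes and -0.01 over all genes tested. Together the 10 genes took 0.188%, 0.187% and 0.196% of the reads in the Control samples (replicates 1 to 3 in that order, as in all sentences that follow) and 0.113%, 0.114% and 0.106% in the STZ samples. In a culture sequenced in bulk, a loss of those cells that express a gene strongly and less RNA per cell cannot be told apart.

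Upstream sequences are shown for 4 genes, Acly and Acss2 because they open the route, and Fads1 and Scd because they had the smallest p and the largest fall. RefSeq gives a window from 250 bases before to 50 after the start for 7 of the 10 genes (assembly GRCr8), and not for Acaca, Fasn and Elovl6. The 250 bases before the start are printed 5′ to 3′ on the strand of the gene. Capitals mark CCAAT (the box bound by NF-Y) and GGGCGG (the GC box bound by Sp1), on either strand.
Acly, chr10:85963632-85963881, minus strand: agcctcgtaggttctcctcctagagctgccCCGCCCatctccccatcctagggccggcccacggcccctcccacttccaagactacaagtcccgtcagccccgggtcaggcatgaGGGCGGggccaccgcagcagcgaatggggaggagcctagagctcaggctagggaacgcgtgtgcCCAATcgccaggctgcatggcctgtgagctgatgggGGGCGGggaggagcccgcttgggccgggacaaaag
Acss2, chr3:164464453-164464702, plus strand: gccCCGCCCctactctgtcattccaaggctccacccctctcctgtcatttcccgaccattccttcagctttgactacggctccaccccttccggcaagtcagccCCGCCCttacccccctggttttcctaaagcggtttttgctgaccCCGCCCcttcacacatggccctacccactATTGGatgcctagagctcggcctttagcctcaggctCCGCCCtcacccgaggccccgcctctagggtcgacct
Fads1, chr1:216252442-216252691, plus strand: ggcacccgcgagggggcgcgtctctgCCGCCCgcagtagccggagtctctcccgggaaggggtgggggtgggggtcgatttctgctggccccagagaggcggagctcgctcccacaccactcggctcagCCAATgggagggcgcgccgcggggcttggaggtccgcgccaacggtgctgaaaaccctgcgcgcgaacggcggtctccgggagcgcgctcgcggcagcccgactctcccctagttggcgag
Scd, chr1:253231732-253231981, minus strand: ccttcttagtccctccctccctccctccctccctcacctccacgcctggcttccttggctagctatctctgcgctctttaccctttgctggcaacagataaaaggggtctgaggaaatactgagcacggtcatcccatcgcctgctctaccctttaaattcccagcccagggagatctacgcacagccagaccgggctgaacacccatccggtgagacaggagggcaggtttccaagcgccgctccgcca

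CCAAT lay in 5 of the 7 windows (Acly, Acss2, Acacb, Elovl5 and Fads1), against 37.5% of 33469 windows of all genes. GGGCGG lay in 4 (Acly, Acss2, Fads1 and Fads2), against 33.1% of all windows, and Acss2 held 5 copies, 4 of them before the start. The palindrome CACGTG, an E-box, lay in 1 window, that of Elovl5, against 6.42%. TCACNCCAC, a form of the sterol regulatory element bound by SREBP, lay in 0 of the 7 and in 1.12% of all windows. The 4 motifs do not overlap each other in these windows. Scd held none of them, and its transcript fell most. A match of letters shows no binding, and a missing match says only that these letters are not in this window.

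The genes that supply acetyl-CoA were both lower. Acly encodes ATP-citrate lyase, which splits citrate exported from mitochondria into acetyl-CoA. It had 439.6, 442 and 476 CPM in Control and 266, 272 and 251 CPM in STZ, where CPM are read counts brought to a common library size with edgeR's TMM factors. The groups were far apart, and the STZ mean was 41.8% under the Control mean (log2 fold change -0.78, standard error or SE 0.04, edgeR adjusted p = 1.5e-20). Acss2 encodes the cytosolic enzyme that makes acetyl-CoA from free acetate. Its level was 51.4, 56.0 and 57.1 CPM in Control and 24.4, 27.1 and 25.2 CPM in STZ, with no sample between the groups. Acss2 fell by 1.11 on the log2 scale (SE 0.07, edgeR adjusted p = 5.4e-18).

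Of the carboxylases, Acaca had many reads and Acacb almost none. Acaca encodes the cytosolic acetyl-CoA carboxylase, whose malonyl-CoA is the building block for the synthase. It had 173, 169 and 178 CPM in Control and 99.7, 109.9 and 106 CPM in STZ, so that the STZ mean was 39.2% under that of Control. On the log2 scale Acaca fell by 0.72 (SE 0.04, edgeR adjusted p = 1.3e-17). Acacb encodes the carboxylase at the mitochondrial membrane, whose malonyl-CoA restrains the import of fatty acids for oxidation. Only 1, 0 and 1 reads were counted for it in Control and 0, 1 and 0 in STZ. It did not pass the filter, and neither its presence nor a change was detectable at this depth. Fasn encodes fatty acid synthase, which makes palmitate. It had 357, 357 and 385 CPM in Control, and 217, 222 and 188 CPM in STZ. All STZ samples were well under all Control samples, and Fasn fell by 0.81 on the log2 scale (SE 0.05, edgeR adjusted p = 3.7e-19).

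**Figure D1:**
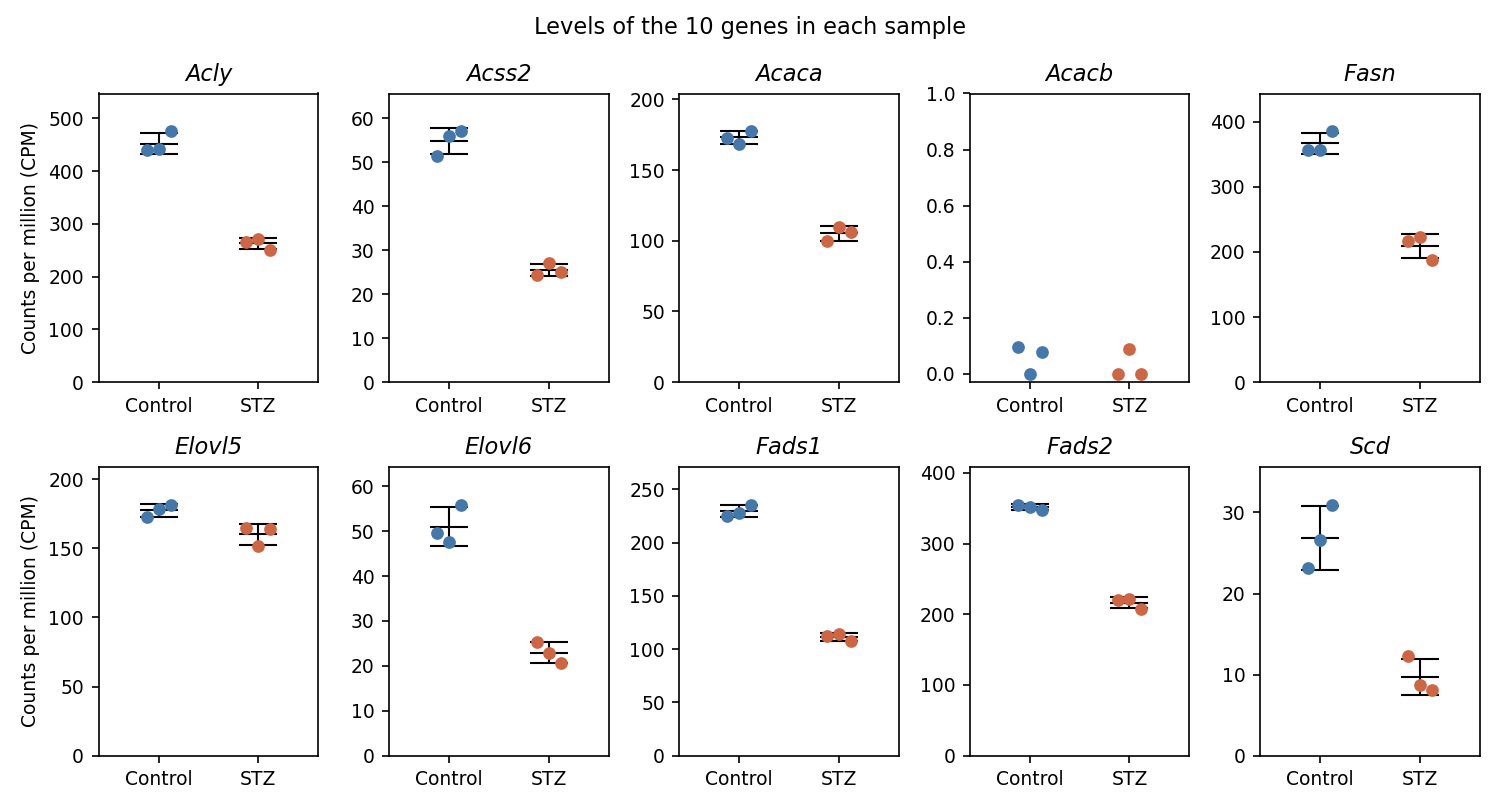
Levels of the 10 genes in CPM (linear axes, each gene on its own scale), with 1 point per sample and, for the 9 genes tested, the mean ± SD of 3 samples. The STZ samples lie under the Control samples in each of the 9, by the narrowest margin in Elovl5, and Acacb stays at 0 or 1 read in every sample.

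The elongases fell unequally. Elovl6 encodes the enzyme that lengthens palmitate to stearate. Its level was 49.5, 47.6 and 55.9 CPM in Control and 25.3, 22.9 and 20.6 CPM in STZ. The STZ mean was 55.0% under the Control mean (log2 fold change -1.16, SE 0.07, edgeR adjusted p = 4.6e-17). Elovl5 encodes the elongase of polyunsaturated fatty acids. It had 172, 178 and 182 CPM in Control and 165, 151 and 164 CPM in STZ. The groups did not overlap, but only 7.64 CPM separated the lowest Control sample from the highest STZ sample. Elovl5 fell by 0.15 on the log2 scale (SE 0.04, edgeR adjusted p = 0.0039), and with STZ replicate 2 left out it was -0.11 and missed the threshold (adjusted p = 0.052). Within each sample, the reads of Elovl5 were set against those of Elovl6, which does not depend on the scaling of the libraries. The log2 ratio was 1.80 ± 0.10 in Control and 2.81 ± 0.16 in STZ (SD, n = 3 each), and the difference between these means was larger than the spread in either group.

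The desaturases fell too, and Scd had the lowest log2 fold change of the 9 genes. Scd encodes stearoyl-CoA desaturase, which turns stearate into oleate and palmitate into palmitoleate. Its level was 23.1, 26.6 and 31.0 CPM in Control and 12.3, 8.69 and 8.14 CPM in STZ, from 100 to 397 reads per sample. STZ replicate 1 stood above the other STZ samples, and still under every Control sample. Scd fell by 1.48 on the log2 scale (SE 0.11, edgeR adjusted p = 1.5e-14), and the STZ mean was 63.9% under that of Control. Fads1 and Fads2 encode the front-end desaturases that make arachidonate and other long polyunsaturated fatty acids from the essential ones. Fads1 had 225, 228 and 236 CPM in Control and 112, 114 and 107 CPM in STZ. No gene of the route had a smaller p, and 27 of the 11870 genes did (log2 fold change -1.05, SE 0.04, edgeR adjusted p = 7.3e-24). Fads2 had 355, 352 and 347 CPM in Control and 220.1, 221 and 208 CPM in STZ, and fell by 0.70 on the log2 scale (SE 0.04, edgeR adjusted p = 2.4e-19).

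**Figure D2:**
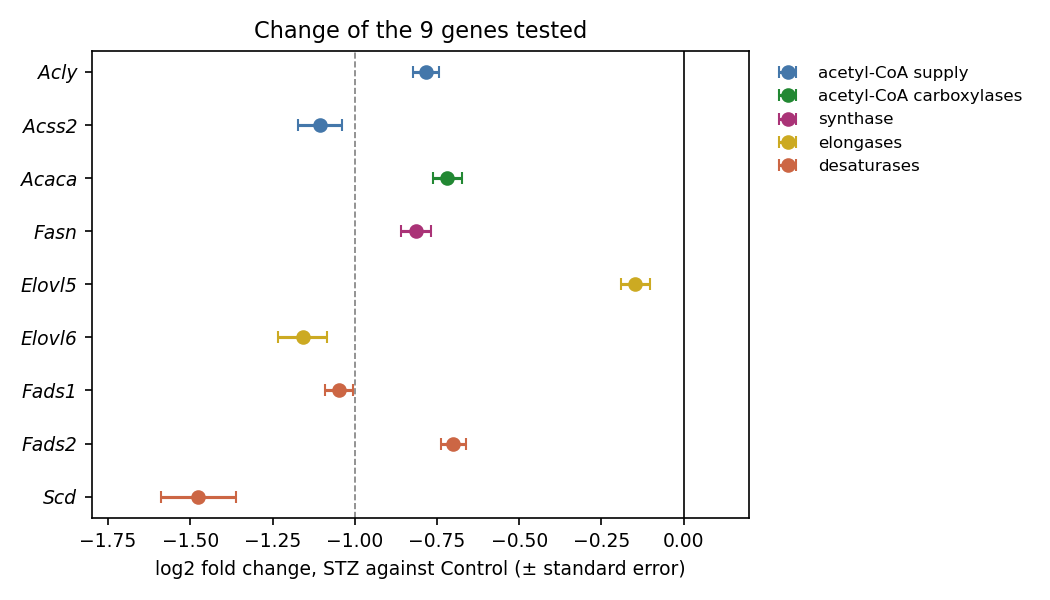
Log2 fold change of STZ against Control for the 9 genes tested, with its standard error, in the order of the route and coloured by role. The dashed line marks -1, and Acss2, Elovl6, Fads1 and Scd lie beyond it, while Elovl5 lies nearest to 0 at -0.15.

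Pairs of related enzymes of the route were compared within each sample. Besides Elovl5 and Elovl6, the pairs were Acly with Acss2, Fads1 with Fads2, and Scd with Fasn. The log2 ratio of Fads1 to Fads2 was -0.62 ± 0.05 in Control and -0.96 ± 0.01 in STZ (SD, n = 3 each), so Fads1 lost more of its reads than Fads2 did. That of Acly to Acss2 was 3.04 ± 0.06 in Control and 3.36 ± 0.07 in STZ, and Acss2 lost more. That of Scd to Fasn was -3.78 ± 0.16 in Control and -4.44 ± 0.28 in STZ, and Scd lost more. In all 4 pairs the groups did not overlap. The exact two-sided permutation test gave p = 0.1 for each, also after adjustment over the 4 pairs, and with 3 samples against 3 this is the smallest p it allows.

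**Figure D3:**
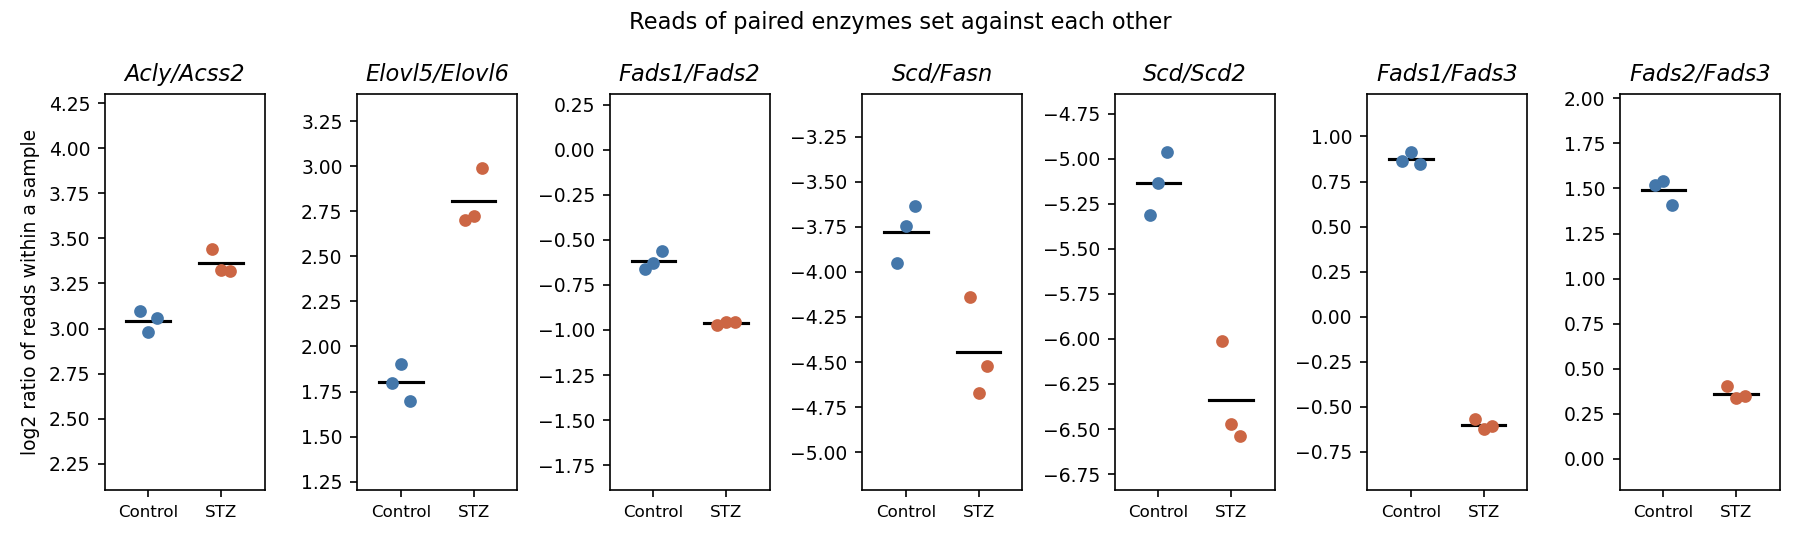
Log2 ratio of the reads of paired enzymes within each sample, with 1 point per sample and a line at the group mean of 3 samples; every axis spans the same range around its own centre. The groups do not overlap in any panel, and the mean is 1.80 in Control and 2.81 in STZ for Elovl5/Elovl6, and -0.62 and -0.96 for Fads1/Fads2.

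Of 4 other desaturase genes tested, 2 were higher and 1 was lower, against 25.9% higher and 25.1% lower among all genes tested. Fads3, which encodes a desaturase acting on sphingoid bases, neighbours Fads2 on chromosome 1, with 0 protein-coding genes between them in GRCr8. It had 124, 121 and 131 CPM in Control and 166, 175 and 163 CPM in STZ, and rose by 0.43 on the log2 scale (SE 0.04, edgeR adjusted p = 6.9e-11). The log2 ratio of Fads1 to Fads3 went from 0.88 ± 0.03 in Control to -0.60 ± 0.03 in STZ (SD, n = 3 each). Scd2, a second stearoyl-CoA desaturase, was chosen after its values were seen, as were the ratios to Fads3 and Scd2. It had 920.4, 935 and 965 CPM in Control and 795, 776 and 759 CPM in STZ, and fell by 0.28 on the log2 scale (SE 0.04, edgeR adjusted p = 1e-08). The log2 ratio of Scd to Scd2 was -5.14 ± 0.18 in Control and -6.34 ± 0.29 in STZ (SD, n = 3 each). Scd and Scd2 are close in sequence, and only uniquely mapped reads were counted, so the reads of each may miss some shared stretches. Scd4 had at most 6 reads in any sample.

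Of 56 further genes around the route, 45 were tested, and 18 of these were lower and 13 higher by the same rule. Shares of 25.1% lower and 25.9% higher over all genes tested are the background for this count and for those of the smaller groups that follow, and the higher genes were near it. The median log2 fold change of the 45 was -0.08. None passed both thresholds in either direction. Of 4 genes tested that supply citrate and NADPH, 2 were lower and 2 higher. Slc25a1, the mitochondrial citrate carrier, fell by 0.50 and Idh1, the cytosolic isocitrate dehydrogenase, fell by 0.57 on the log2 scale. Me1, malic enzyme, rose from 159 ± 10.2 to 184 ± 6.09 CPM (SD, n = 3 each), a log2 fold change of 0.21. Pgd, of the same group, rose by 0.13 on the log2 scale. Me1 and Pgd were named after their values were seen. Of the 9 other elongation genes tested, 4 were lower and 2 higher, and the smallest p was that of Hacd2, a dehydratase of the elongation cycle, at a log2 fold change of -0.40.

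Among genes that use or activate fatty acids, calls fell on both sides, as over all genes tested (25.1% lower and 25.9% higher). Of 9 genes of glycerolipid synthesis, 4 were higher and 3 lower, among them Lpin1, a phosphatidate phosphatase, with a log2 fold change of -0.44. Of 4 acyl-CoA synthetases tested, Acsl5 rose by 0.44 on the log2 scale while 2 others were lower. Mlycd, which degrades malonyl-CoA, rose by 0.24. Of 5 genes of the separate mitochondrial route of fatty acid synthesis, 2 were lower and 0 higher, and the smallest p was that of Cbr4, a subunit of its ketoacyl reductase, at a log2 fold change of -0.51.

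Among transcription factors and their controls, 4 of 7 were lower and 1 was higher, against 25.1% and 25.9% of all genes tested. Insig1, which retains the SREBP complex in the endoplasmic reticulum and is itself a known SREBP target, went from 197 ± 2.05 CPM in Control to 137 ± 7.13 CPM in STZ (SD, n = 3 each), a log2 fold change of -0.53. Mlx, the partner of the carbohydrate response factor ChREBP, had 59.1, 56.0 and 64.8 CPM in Control and 98.5, 97.1 and 93.3 CPM in STZ. Mlx rose by 0.68 on the log2 scale, but ChREBP itself, listed as Mlxipl, had no row under its symbol. Srebf1 and Srebf2, which encode SREBP-1 and SREBP-2, were named after their values were seen. Srebf2 had a log2 fold change of -0.33 (edgeR adjusted p = 1.7e-09). That of Srebf1 was -0.18 (edgeR adjusted p = 0.029), and it missed the threshold with DESeq2 (adjusted p = 0.099) and without Control replicate 3, STZ replicate 1 or STZ replicate 3 (adjusted p = 0.12, 0.13 and 0.098).

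**Figure D4:**
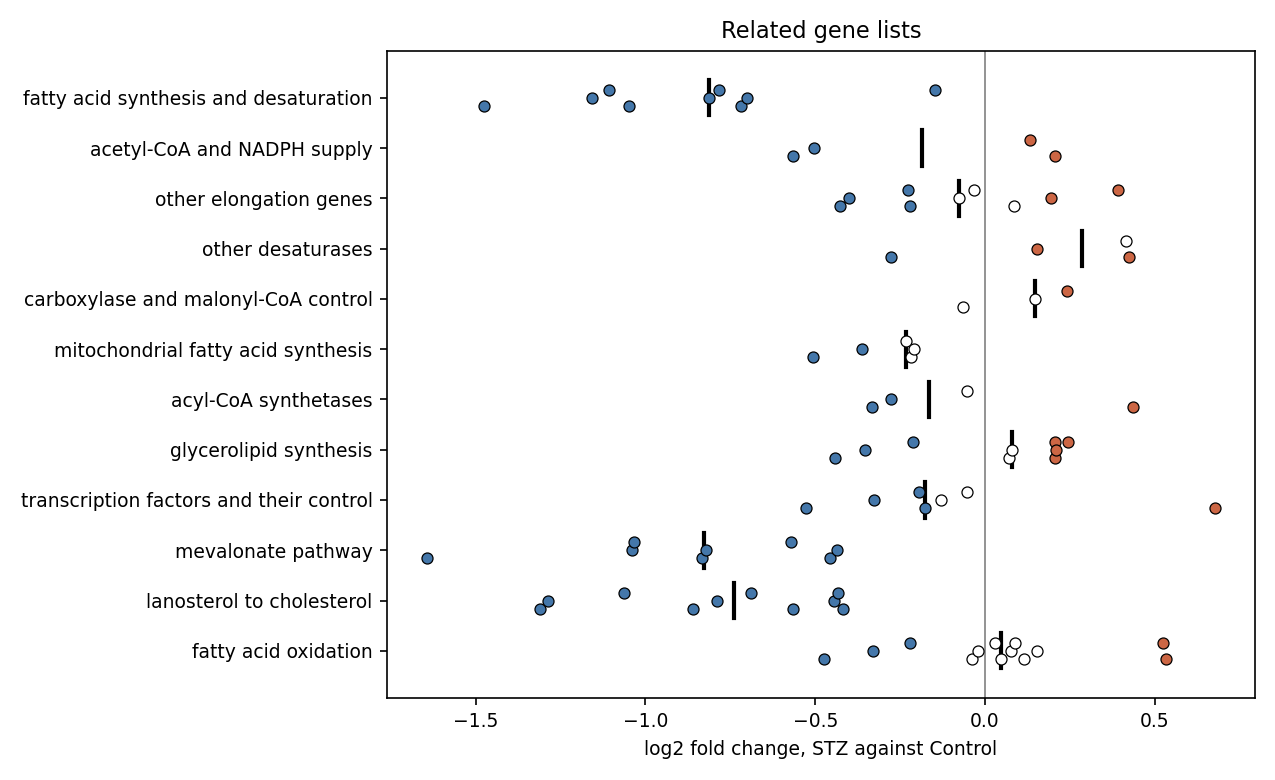
Log2 fold change of STZ against Control for each gene tested, by list, with a bar at the median of the list. Filled points passed an adjusted p-value of 0.05 (blue lower, orange higher) and open points did not; all points of fatty acid synthesis and desaturation and of both sterol lists are blue, whereas every other list holds open or orange points.

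The lists nearest in function were set beside the route. All 8 genes tested of the mevalonate pathway and all 10 from lanosterol to cholesterol were lower, with median log2 fold changes of -0.83 and -0.74. Their ranges were -1.64 to -0.44 and -1.31 to -0.42, and that of fatty acid synthesis and desaturation was -1.48 to -0.15, so Elovl5 lay above every gene of both sterol lists. Of 13 genes of fatty acid oxidation, 3 were lower and 2 higher, with a median of 0.05, and neither share was above that of all genes tested (25.1% lower and 25.9% higher). The difference between these lists was not tested.

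Library totals lay between 10430924 and 15191349 reads. The TMM factors were 1.008 to 1.018 in Control and 0.988 to 0.989 in STZ. Krt8, a keratin of simple epithelia, was abundant and rose by 0.48 on the log2 scale, but Krt18 had at most 3 reads. Cdh1, or E-cadherin, was low and fell by 0.69 on the log2 scale (edgeR adjusted p = 0.030), with overlapping groups, and Krt7 did not pass the test (log2 fold change -0.16, edgeR adjusted p = 0.70). Of 7 proximal tubule markers, Aqp1 passed the filter (log2 fold change -1.25), and the other 6 had at most 10 reads in every sample, as did all 3 general tubule markers in the table, so transporters of the mature tubule were near 0 in these cells. Over the 3 adipocyte and hepatocyte markers the summed level was 0.637 to 1.23 CPM in Control and 0.782 to 0.934 CPM in STZ. Over the 6 fibroblast markers in the table it was 47.3 to 52.6 CPM in Control and 36.9 to 43.7 CPM in STZ, carried by Col1a1 and Pdgfrb, and for the 4 epithelial markers 1110.0 to 1180.0 CPM in Control and 1600.0 to 1620.0 CPM in STZ, nearly all of it Krt8. Over the 5 leukocyte and endothelial markers it was 0.818 to 2.17 CPM in Control and 2.4 to 2.61 CPM in STZ, without overlap. Most of it was Cd68, whose groups overlapped (log2 fold change 0.40, edgeR adjusted p = 0.28). The other 4 had at most 10 reads in every sample and went different ways. Kdr, an endothelial receptor, had 0, 2 and 1 reads in Control and 6, 9 and 7 in STZ. Ptprc and Pecam1 had reads only in Control, and Cdh5 only in STZ replicate 3. The part of these shifts in the fall of the route was not tested.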

How the data were processed

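RNA of 3 STZ and 3 Control samples was sequenced from libraries made with a stranded kit for messenger RNA. The authors aligned reads with STAR 2.7.10a to the rat assembly Rnor6. They deposited raw counts of uniquely mapped reads per gene, from featureCounts. The strand setting and the annotation release are not given in the sources used here. In GRCr8, 4 of the 10 genes (Acss2, Acaca, Acacb and Fads2) overlap another gene, whose reads may not be fully separated.

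Counts were scaled by TMM, filtered by filterByExpr and compared by the quasi-likelihood test of edgeR 4.0.16 (R 4.3.3), with p-values adjusted by the Benjamini-Hochberg method. Genes were called at an adjusted p-value below 0.05, and where both thresholds are named also at a log2 fold change beyond 1 in size. Standard errors were computed as the size of the log2 fold change over the root of the F statistic. Ratios within a sample used 0.5 added reads. Only the edgeR fit was tested on drawn counts with known answers, and not the ratios, the permutation test or the motif search.

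The genes and lists were chosen with earlier results of these data known. Named from the further genes were the smallest p of each group and those called with a log2 fold change beyond 0.5 in size. The 5 listed genes with no row under their symbol were not analysed here. Transcript lengths were not used here, so words such as abundant or low refer to reads and not to levels per length.

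Separate cultures are not stated, so p-values measure the spread between these samples. Samples of a group differed beyond sampling noise (the lowest chi-square per degree of freedom was 1.85). Alternatives were 3 filters, 3 scalings, DESeq2 1.42.0, limma-voom 3.58.1, a replicate block, and each sample left out.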

Additional observations from a re-analysis of the deposited data

How the results depend on the processing

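Of 135 refits of the 9 genes, 134 kept the direction and the side of the threshold. The exception was Elovl5, whose log2 fold change was -0.17 to -0.11 with one sample left out and missed the threshold without STZ replicate 2. Under the other alternatives it was -0.18 to -0.14. The number of the 9 genes called lower was 8 to 9 with one sample left out and 9 otherwise, and the 4 past both thresholds stayed 4 in number under all alternatives. The median over the 9 genes was -0.86 to -0.75 with one sample left out, and -0.85 to -0.81 otherwise. Differences in the ratios of paired enzymes kept their direction in all 28 alternatives. Over all genes, 400 passed both thresholds, 249 when genes needed 10 counts in every sample, 565 when they needed 0.5 CPM in 1 sample, and 585 with no filter.

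Same-numbered samples of the groups had correlations of 0.0324, -0.0378 and 0.105 between their deviations from the group means. Of 6 samples, 3 correlated best with their own number. So few samples cannot settle whether they were paired. With the replicate block, 9 of the 9 genes were called lower, their median was -0.82, and 398 genes passed both thresholds. Over all genes the block called 3060 lower and 3139 higher, against 2976 and 3070 without it. The edgeR adjusted p of Fads1 was 2.9e-44 with the block and 7.3e-24 without it.

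Acacb was tested only with no filter (log2 fold change -0.96, edgeR adjusted p = 0.72), so its depth allows no statement. For the same reason the ratio of Acaca to Acacb was left out. Levels per length were not run, because transcript lengths were not used here.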

Other observations

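Fatty acid oxidation, which runs opposite to the synthesis route, changed gene by gene. These genes were named after their values were seen. Acadvl, the very-long-chain acyl-CoA dehydrogenase of the first step of the mitochondrial cycle, went from 77.2 ± 3.05 CPM in Control to 112 ± 2.31 CPM in STZ (SD, n = 3 each), a log2 fold change of 0.53. Acadl, its long-chain relative, went from 103 ± 4.68 to 148 ± 12.4 CPM (SD, n = 3 each), a log2 fold change of 0.52. Echs1 and Hadh, which encode the next steps of the cycle for shorter chains, fell by 0.47 and 0.33 on the log2 scale. Cpt1a, the carnitine transferase that admits fatty acids to mitochondria and is inhibited by malonyl-CoA, fell by 0.22. These 5 passed the adjusted p-value threshold, and the other 8 genes of the list that were tested did not. Of the 13 tested, 3 were lower and 2 higher, against 25.1% lower and 25.9% higher among all genes tested.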
